A study of Mus musculus with 4 samples.

Results

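S-phase-high cells are the mouse embryonic stem cells (mESCs) that devoted the largest share of their transcripts to the machinery of DNA replication while holding few mitotic transcripts. They numbered 3715 of the 31989 cells kept, or 11.6%. A cell was a member when it lay in the highest 15% of its library by the S share, the summed unique molecular identifiers (UMIs) of 13 S genes over all its UMIs, and below its library's median G2/M share, the same quantity for Top2a, Cenpf, Ccnb1 and Cdk1. The 13 S genes were Mcm2 to Mcm7, Pcna, Tyms, Rrm2, Gins2, Cdc6, Slbp and Ung. Because the rule fixed the highest 15%, the size of the class is no finding. It held 967, 989, 902 and 857 cells in libraries 1 to 4, which is 11.9%, 11.6%, 11.4% and 11.5% of the kept cells.

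The cells came from the male line E14tg2a.4, wild-type (WT) or carrying a heterozygous gene trap that truncates Srrm2 (Srrm2 hKO, the single line CG0630), with 2 samples of each and LIF in every culture. Single-cell 3′ libraries were made from whole cells, and the study's methods give 1 growth time for all of them, in regular culture, while the general growth text of the labels names 24 h or 72 h in ESGRO medium without serum. The matrix joins 4 libraries and gives each cell a library number that no source used here ties to a labelled sample. Genotypes were therefore not compared, each value is given per library, and a library stands for 1 culture. S-phase-high cells were set beside other cells of their own library without a test, since measured values of the same cells had chosen them.

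Before S phase, the origin recognition complex with Cdc6 and Cdt1 loads the Mcm2 to Mcm7 helicase ring onto DNA, a step called licensing. At the G1/S transition, cyclin E with its kinase releases E2F factors from the retinoblastoma family, and E2F factors drive the genes for licensing, nucleotide supply and fork proteins. Mouse embryonic stem cells have a short G1, spend much of their cycle in S phase and keep cyclin E high throughout. Their cell cycle transcripts therefore swing less than those of somatic cells, and a class cut from a share of transcripts is a range of cells and not a cell type.

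Promoters of the rule's genes are shown first, since E2F factors are known to drive many replication genes. RefSeq promoter windows of build GRCm38.p6, from 250 bases before to 50 after each start, were searched on both strands for 4 E2F-type words (TTTCCCGC, TTTGGCGC, TTTCGCGC and TTTGCCGC), for CCAAT, the box bound by NF-Y, and for TTTGAA, the CHR word found at many mitotic genes. The 180 bases before the start are printed for 5 of the rule's genes, Mcm5, Mcm6, Mcm7 and Cdc6, which hold an E2F-type word there, and Pcna, which holds none, and for Dtl, a gene outside the rule that was higher in these cells. Capitals mark a match to any of these words on either strand.
Mcm5, chr8:75109329-75109508, plus strand: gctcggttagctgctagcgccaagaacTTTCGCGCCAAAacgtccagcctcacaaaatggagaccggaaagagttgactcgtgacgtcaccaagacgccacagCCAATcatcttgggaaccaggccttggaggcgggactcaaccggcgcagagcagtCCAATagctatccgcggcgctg
Mcm6, chr1:128359706-128359885, minus strand: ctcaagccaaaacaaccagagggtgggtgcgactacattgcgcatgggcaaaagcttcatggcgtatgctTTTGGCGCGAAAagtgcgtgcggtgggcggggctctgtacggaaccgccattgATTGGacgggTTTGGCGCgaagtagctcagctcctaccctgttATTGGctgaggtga
Mcm7, chr5:138171884-138172063, minus strand: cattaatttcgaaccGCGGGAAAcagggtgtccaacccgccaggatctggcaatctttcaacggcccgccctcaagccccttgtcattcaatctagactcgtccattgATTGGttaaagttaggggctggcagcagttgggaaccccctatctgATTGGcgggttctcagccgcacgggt
Cdc6, chr11:98907971-98908150, plus strand: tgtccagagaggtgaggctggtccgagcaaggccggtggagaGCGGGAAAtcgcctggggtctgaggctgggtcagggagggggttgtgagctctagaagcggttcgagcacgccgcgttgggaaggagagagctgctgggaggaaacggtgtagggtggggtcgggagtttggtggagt
Pcna, chr2:132253181-132253360, minus strand: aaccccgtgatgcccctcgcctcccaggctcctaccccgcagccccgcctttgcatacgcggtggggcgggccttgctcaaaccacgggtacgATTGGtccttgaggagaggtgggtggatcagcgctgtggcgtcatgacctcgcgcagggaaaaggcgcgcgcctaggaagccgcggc
Dtl, chr1:191575545-191575724, minus strand: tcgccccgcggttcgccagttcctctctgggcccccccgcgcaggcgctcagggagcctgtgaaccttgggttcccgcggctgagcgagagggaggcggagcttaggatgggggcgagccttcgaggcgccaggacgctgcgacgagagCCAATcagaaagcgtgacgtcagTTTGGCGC

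In Mcm5 the words TTTCGCGC and TTTGGCGC, the latter on the other strand, overlap at 153 and 149 bases before the start, and in Mcm6 the pair lies at 110 and 106 bases before it with 1 more match at 47. Pcna held no E2F-type word in its window and 1 CCAAT box in the bases shown. Promoter windows were found for 11 of the 13 S genes, and 5 of their 12 windows (41.7%) held an E2F-type word, those of 5 genes, against 2.26% of all 32851 windows and 4.37% of the windows of the genes counted below. Of the 88 replication genes that the rule did not use, 22 of 92 windows (23.9%) held one, and of 46 G2/M genes outside the rule, 0 of 44 windows did. Windows were found for 18 of the 26 higher genes outside the rule, and 4 of these 22 windows (18.2%) held one. They were those of Dtl, Uhrf1, D430020J02Rik and Ncapg2, and the windows of D430020J02Rik and Ncapg2 overlap. The CHR word was in 8.33% of the S genes' windows, 16.3% of the other replication genes' windows, 22.7% of those of the higher genes outside the rule and 59.1% of the G2/M genes' windows. It was in 17.9% of all windows and 11.9% of those of the genes counted below. CCAAT was in 75.0% of windows of the S genes, 77.3% of those of the G2/M genes and 37.4% of all windows. A match is a description of letters and not a bound site.

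The S share had no gap at the limit. The limit stood at 0.267%, 0.274%, 0.258% and 0.258% of UMIs in libraries 1 to 4, and in library 1 the first cell inside it had a share of 0.267237% and the first outside 0.267215%. Within 5% of the limit on either side lay 780, 885, 781 and 716 cells. The median share of S-phase-high cells was 0.295%, 0.300%, 0.284% and 0.284%, and the highest single members reached 0.455%, 0.483%, 0.445% and 0.404%. The cells with the lowest 50% of S shares, here called S-low cells, had medians of 0.170%, 0.177%, 0.158% and 0.160%. In UMIs this is a median of 48, 58, 48 and 53 S-gene molecules in an S-phase-high cell against 33, 40, 32 and 36 in an S-low cell. S-phase-high cells also held fewer UMIs, with medians per cell of 15954, 18948, 16460 and 18663, which was 0.800, 0.807, 0.787 and 0.809 of the S-low medians. Total UMIs were the divisor of both shares, and the G2/M limit was set on S-phase-high cells only, so these ratios are a description.

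With so few molecules per cell, part of a high share can be counting error, and the cells were chosen on it. Each cell's UMIs were therefore also parted at random into 2 sets, the cells chosen on one and the genes measured on the other. The mean S share of the chosen cells was 0.319%, 0.326%, 0.312% and 0.308% in the set that chose them and 0.258%, 0.271%, 0.253% and 0.256% in the set that did not. S-low cells chosen the same way had 0.185%, 0.191%, 0.165% and 0.173%. The cells thus kept a higher share in molecules that had not selected them, by less than the selecting set gave. Of the S-phase-high cells by all UMIs, 61.4%, 63.7%, 63.6% and 62.1% were among those chosen on 1 set. The summed level of the 13 S genes, in counts per 1000000 UMIs (CPM), was 3004, 3068, 2906 and 2908 in S-phase-high cells against 1666, 1735, 1494 and 1565 in S-low cells. These are ratios of 1.80, 1.77, 1.95 and 1.86, and on the separate molecules the ratios were 1.41, 1.43, 1.53 and 1.51.

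Mcm5, a subunit of the helicase ring and 1 of the 3 marker genes of the class, stood at 259, 247, 261 and 235 CPM in S-phase-high cells and at 139, 151, 133 and 138 CPM in S-low cells. Its ratios of 1.86, 1.63, 1.96 and 1.70 became 1.38, 1.31, 1.63 and 1.36 on separate molecules. Mcm6, another subunit of the ring, stood at 259, 262, 224 and 236 against 129, 145, 107 and 127 CPM, with 1.51, 1.47, 1.66 and 1.51 on separate molecules. Pcna, the sliding clamp that holds polymerases on DNA, stood at 352, 413, 354 and 393 against 201, 232, 182 and 210 CPM, with 1.40, 1.40, 1.52 and 1.52 on separate molecules. All 3 are among the genes whose sum chose the cells, so their levels with all UMIs are a description of the choice.

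**Figure D1:**
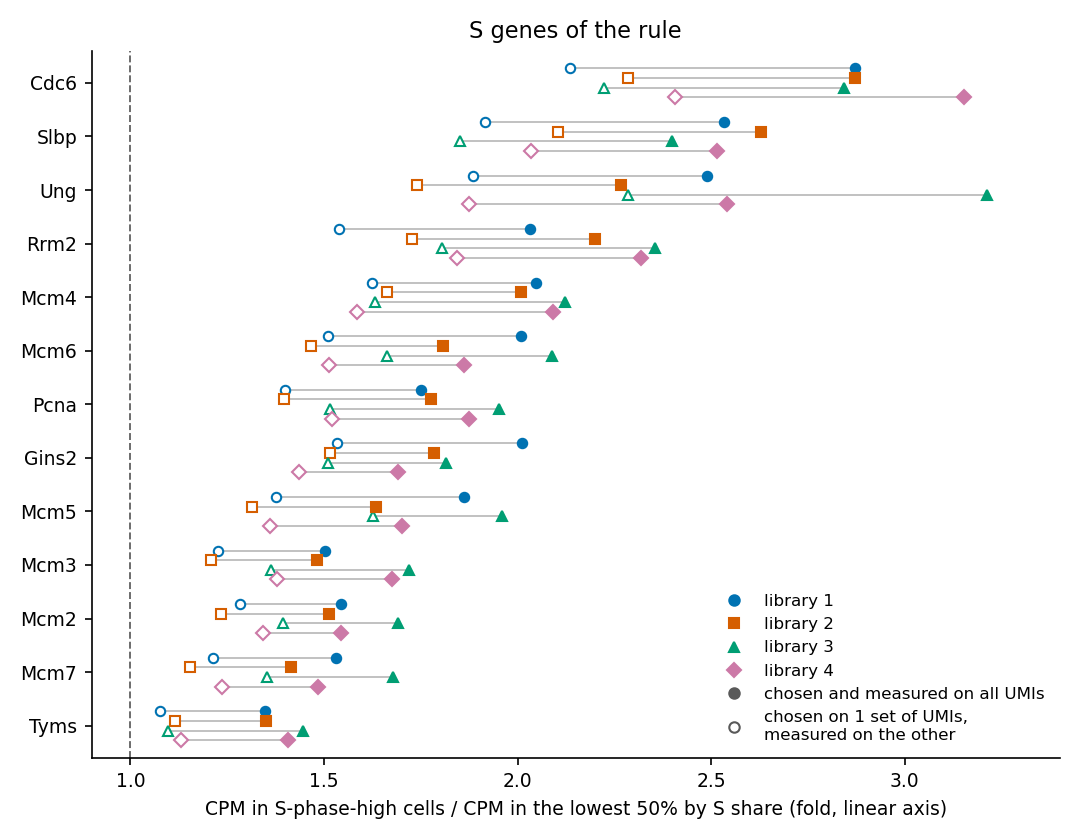
Ratio of CPM in S-phase-high cells to CPM in S-low cells for the 13 S genes, by library (colour and shape), with cells chosen and measured on all UMIs (filled) or chosen on 1 set of UMIs and measured on the other (open). Every open symbol lies left of its filled partner and above 1, with Cdc6 at 2.14 to 2.41 and Tyms at 1.08 to 1.13.

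The S genes did not share the excess evenly. On separate molecules Cdc6, the loader of the helicase, was 2.14, 2.29, 2.22 and 2.41 times higher, the largest ratio in libraries 1, 2 and 4. Slbp, the binding protein of histone messenger RNA stem-loops, had 1.92, 2.10, 1.85 and 2.04. Ung, the uracil-DNA glycosylase that clears uracil from new DNA, had ratios of 1.88, 1.74, 2.29 and 1.88, the largest in library 3, and Rrm2, the small subunit of ribonucleotide reductase, 1.54, 1.73, 1.81 and 1.84. Among the helicase subunits, Mcm4 had 1.62, 1.66, 1.63 and 1.58, while Mcm2, Mcm3 and Mcm7 lay between 1.15 and 1.40. Gins2, part of the active helicase, had 1.44 to 1.53. Tyms, the thymidylate synthase, was lowest at 1.08, 1.12, 1.10 and 1.13. Its levels were 189, 148, 201 and 138 CPM in S-phase-high cells against 140, 110, 139 and 97.9 CPM in S-low cells with all UMIs.

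The S genes were also higher when some of them did not choose the cells. With the S share taken from Mcm2 to Mcm7 alone, which picked 850, 813, 786 and 695 cells, the summed level of the other 7 S genes was 1.35, 1.44, 1.47 and 1.53 times that of S-low cells. Cdc6 again had the largest ratio of the 7 in libraries 1, 2 and 4, at 1.89, 1.93 and 2.00, with 1.94 in library 3, where Ung had 2.16. Tyms again had the smallest in every library, at 1.01, 1.08, 1.10 and 1.14. With the share taken from those 7 genes, Mcm2 to Mcm7 together had ratios of 1.25, 1.25, 1.36 and 1.32, from 1.09 for Mcm3 in library 1 to 1.55 for Mcm4 and Mcm6 in library 3. In both choices the G2/M limit held for the chosen cells and not for the S-low cells, and its part in these ratios was not tested.

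Across all genes, a gene was counted as higher or lower when all 4 libraries showed a CPM ratio of 1.5 or more, or of its inverse or less, with at least 200 counts over both classes in each. Of 10312 genes with these counts, 36 (0.349%) were higher in S-phase-high cells and 55 (0.533%) were lower. S-low cells held more UMIs in every library, 88498289 against 16270681 in library 1. A scarce gene could thus pass the count minimum more easily when it was higher in S-low cells, so the balance of these numbers is no finding. The higher genes held 10 of the 13 S genes, which the rule used, and 26 others. Mcm3, Mcm7 and Tyms fell short in at least 1 library. The median gene had a ratio of 1.008, so both classes were scaled alike for most genes. Counted on separate molecules, 18 genes were higher, 17 of them among the 36, and 40 were lower. The share of all genes above 1, or below 1, in every library was not computed, so such numbers below have no background.

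Ccne2 had the largest ratio in its weakest library among the higher genes outside the rule. Ccne2, one of the cyclins E that start S phase with Cdk2, was a scarce transcript at 9.40, 17.7, 10.8 and 21.3 CPM in S-phase-high cells and 3.58, 5.39, 4.76 and 6.84 CPM in S-low cells. The ratios were 2.63, 3.29, 2.26 and 3.11, with 95% counting intervals of 2.15 to 3.19, 2.87 to 3.77, 1.88 to 2.71 and 2.72 to 3.55. Every library's S-phase-high level lay above all 4 S-low levels. Ccne1, the abundant cyclin E, stood at 141, 340, 195 and 317 CPM against 86.5, 199, 107 and 189 CPM. Its ratios of 1.63, 1.71, 1.82 and 1.68 were close to each other, while its level in S-phase-high cells differed more between libraries (141 to 340 CPM) than between classes of a library.

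Other members of the G1/S list followed. E2f8, an atypical E2F that represses E2F targets later in S phase, stood at 23.0, 47.8, 31.2 and 45.7 CPM against 14.8, 24.0, 16.4 and 21.3 CPM, with ratios of 1.55, 1.99, 1.90 and 2.14. Dtl, the receptor of the ubiquitin ligase that destroys Cdt1 on the Pcna clamp, had ratios of 1.55, 1.61, 1.62 and 1.69. Of 28 G1/S genes, these 4 counted ones (Ccne1, Ccne2, E2f8 and Dtl) were higher and 0 were lower, against 0.349% and 0.533% of all genes, with 17 above 1 in every library and a median gene ratio of 1.17. Cdk4, the most abundant of the list and a kinase of G1, had 1.00, 0.96, 0.99 and 0.99.

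The rest of the 15 genes with the largest ratios outside the rule were of mixed kinds. Slfn9, of the Schlafen family, stood at 23.6, 22.1, 13.7 and 16.7 CPM against 8.34, 10.1, 4.99 and 7.58 CPM, and its neighbour Slfn8 at 8.48, 9.73, 5.64 and 10.2 against 5.04, 4.92, 2.82 and 4.96 CPM. These neighbouring paralogs are similar in sequence, so reads could have been divided between them. Fam111a, a protease that acts at replication forks, stood at 34.2, 51.1, 40.0 and 64.2 against 18.5, 23.9, 21.2 and 29.7 CPM. Tcf19 had ratios of 2.10 to 2.45, Fam222a 2.17 to 2.38, Shisa8 1.71 to 2.06, Gm4425 1.64 to 2.07 and the antisense transcript Arhgap27os2 1.58 to 1.94, all below 10 CPM. D430020J02Rik, also below 11 CPM, had ratios of 2.08 to 2.29 and starts beside Ncapg2 on the opposite strand. Ncapg2, a condensin subunit picked out here after its values were seen, had ratios of 1.63, 2.03, 1.51 and 1.86.

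**Figure D2:**
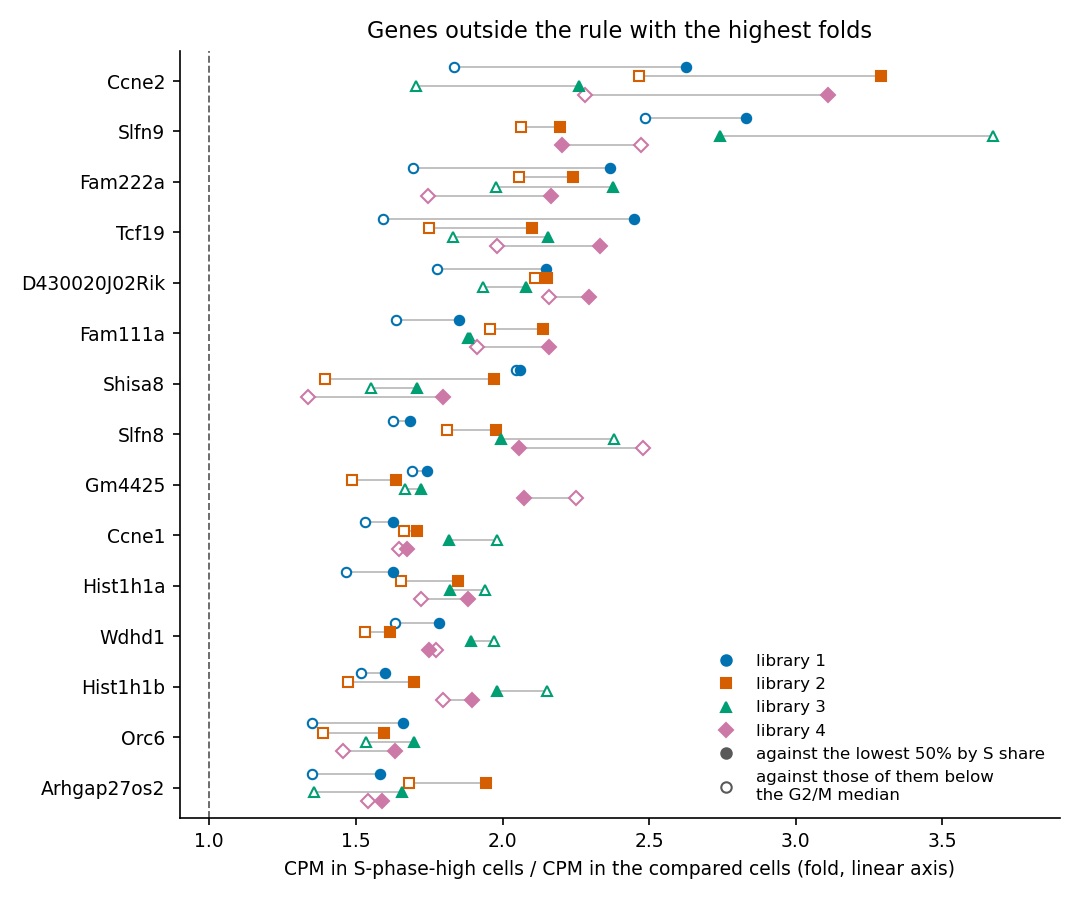
Ratio of CPM in S-phase-high cells to CPM in the compared cells for the 15 genes outside the rule with the largest ratios, by library, against all S-low cells (filled) or the S-low cells below the G2/M median (open). Every symbol lies above 1, and Ccne2 falls from 2.26 to 3.29 with all S-low cells to 1.70 to 2.47 with those below the G2/M median.

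The replication machinery outside the rule was higher as a whole, by much less than the S genes. The 88 genes of 5 lists together stood at 11752, 13318, 11980 and 12922 CPM in S-phase-high cells and at 9763, 11302, 9476 and 10606 CPM in S-low cells, ratios of 1.20, 1.18, 1.26 and 1.22. Of the 88, 3 (Orc6, Wdhd1 and Uhrf1) were counted as higher and 0 as lower, against 0.349% and 0.533% of all genes. Above 1 in every library were 80, and below 1 in every library 2. The median gene of the lists had a ratio of 1.21, against 1.008 over all genes. On separate molecules the summed ratios were 1.18, 1.16, 1.24 and 1.20, close to those with all UMIs.

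Orc6, a subunit of the origin recognition complex, stood at 169, 172, 172 and 164 CPM against 102, 108, 102 and 101 CPM, with ratios of 1.66, 1.60, 1.70 and 1.63. The 11 licensing genes together had ratios of 1.24, 1.23, 1.32 and 1.27, with Orc1 at 1.22 to 1.49, Mcmbp, which binds the Mcm ring, at 1.23 to 1.31, and Gmnn, the inhibitor of Cdt1 and the most abundant of the list, at 1.19 to 1.28. Wdhd1, which ties the helicase to polymerase alpha, stood at 35.3, 45.8, 35.3 and 45.4 against 19.8, 28.3, 18.7 and 26.0 CPM. Cdc45, part of the active helicase, had 1.48, 1.54, 1.77 and 1.58 and missed the count in library 1, Donson had 1.45 to 1.66 and Gins3 1.42 to 1.60. The 12 genes of origin firing summed to 1.05, 1.11, 1.15 and 1.15. The most abundant of them, Dbf4, the activator of the Cdc7 kinase, was below 1 in every library without being counted, at 153, 168, 169 and 165 CPM against 216, 201, 211 and 192 CPM.

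Among 30 polymerase and fork genes none was counted, 27 were above 1 in every library, and the summed ratios were 1.21, 1.18, 1.28 and 1.23. Clspn, which carries the checkpoint signal at forks, had 1.44, 1.78, 1.56 and 1.99, Rpa2, of the single-strand binding complex, 1.45, 1.44, 1.68 and 1.59, Fen1, the flap nuclease, 1.499, 1.40, 1.53 and 1.41, and Pold3, a subunit of polymerase delta, 1.40 to 1.47. Tipin, which steadies the fork and is the most abundant of the list, had 1.51, 1.23, 1.60 and 1.35. Of 19 genes of nucleotide supply none was counted, and the sums had ratios of 1.18, 1.11, 1.22 and 1.14. Ppat, of purine synthesis, had 1.35 to 1.61, Tk1, the thymidine kinase, 1.35 to 1.71, and Dck, the deoxycytidine kinase, 1.28 to 1.60. Nme1, the most abundant, had 1.15, 1.04, 1.03 and 1.02.

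The 16 genes that rebuild chromatin and its methylation behind the fork summed to 1.24, 1.24, 1.32 and 1.28. Uhrf1, which brings Dnmt1 to newly made DNA, stood at 238, 227, 220 and 207 CPM against 158, 146, 138 and 134 CPM, and its ratios were 1.501, 1.56, 1.60 and 1.54. Chaf1a and Chaf1b, subunits of the chromatin assembly factor, had 1.47 to 1.72 and 1.42 to 1.94, Mms22l 1.30 to 1.41, and Nasp, a histone chaperone and the most abundant of the list, 1.26 to 1.39. Dnmt3b, a de novo methyltransferase of the formative list, had 1.18, 1.20, 1.19 and 1.26, although its level ran from 85.1 to 685 CPM over the libraries.

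Replication-dependent histones, which package new DNA, had larger summed ratios than the 88 replication genes in every library. Their transcripts mostly lack a poly(A) tail, so a poly(A)-primed library holds only the part that is tailed, and close copies of each histone share reads. Of 67 genes 31 had enough counts, of which 2 were counted as higher and 0 as lower, against 0.349% and 0.533% of all genes, and 23 were above 1 in every library. All 67 together stood at 1577, 2237, 2285 and 3894 CPM against 1116, 1472, 1417 and 2623 CPM, ratios of 1.41, 1.52, 1.61 and 1.48. Hist1h1b, a linker histone, stood at 487, 505, 479 and 498 against 305, 297, 242 and 263 CPM, and Hist1h1a at 110, 90.2, 107 and 90.2 against 67.5, 48.8, 58.9 and 48.0 CPM. In S-phase-high cells Hist1h2ap, the most abundant histone gene, ran from 573 to 2310 CPM over the 4 libraries with ratios of 1.42 to 1.60.

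Of 31 genes of repair and checkpoints 1 was counted as higher, against 0.349% of all genes, 26 were above 1 in every library, and the sums had ratios of 1.14, 1.15, 1.25 and 1.22. Brca1, of homologous recombination, stood at 86.7, 96.6, 77.7 and 82.2 CPM against 56.3, 60.6, 42.5 and 48.5 CPM, with ratios of 1.54, 1.59, 1.83 and 1.69. Rad54l had 1.41 to 1.67, Rad51ap1 1.39 to 1.53 and Exo1, a resecting nuclease, 1.35 to 1.58, while Parp1, the most abundant, had 1.06 to 1.18. The 12 cohesin genes summed to 0.99, 1.06, 1.03 and 1.11, with none counted, and Esco1, which acetylates cohesin, was the highest at 1.20 to 1.38.

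The lower genes included mitotic and contractile genes. Of 46 G2/M genes outside the rule 12 were counted as lower, against 0.533% of all genes, 38 were below 1 in every library and 0 were above it. Their sum was 3843, 4963, 4131 and 4630 CPM in S-phase-high cells and 6830, 6470, 6041 and 6028 CPM in S-low cells, ratios of 0.563, 0.767, 0.684 and 0.768. The rule limited G2/M transcripts in the S-phase-high cells and not in the S-low cells, so this direction was set by the choice. Prc1, which bundles microtubules of the central spindle, stood at 81.5, 92.1, 80.1 and 97.6 against 208, 200, 182 and 225 CPM. Nusap1, a spindle protein, had ratios of 0.312, 0.513, 0.413 and 0.519, and Ube2c, the ubiquitin carrier of the anaphase-promoting complex, 0.317, 0.566, 0.421 and 0.530. Fam83d of the spindle, Kpna2, an importin, Fzr1, an activator of the anaphase-promoting complex, Hyls1 of the centriole and Arhgef39 were also among the 15 with the smallest ratios outside the rule, between 0.214 and 0.503. Fam83d, Hyls1 and Arhgef39 had under 200 UMIs in S-phase-high cells in every library and passed the count minimum through the S-low cells.

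To set the limit alike on both sides, S-phase-high cells were compared with the S-low cells below the G2/M median, 1328, 1520, 1501 and 1376 cells. The G2/M sums then had ratios of 0.905, 0.993, 1.09 and 0.988, and no gene of that list was counted. The median UMIs per cell of S-phase-high cells were 0.987, 0.949, 0.931 and 0.958 of those of the matched cells, nearer to 1 than before. Of 8564 genes 24 (0.28%) were higher and 17 (0.199%) lower. Of the 26 higher genes outside the rule 11 were counted here too, among them Ccne1, Ccne2, E2f8, Wdhd1, Brca1, Fam111a, Tcf19 and Slfn9. Orc6, Uhrf1, Dtl, Hist1h1a and Hist1h1b were not, each under 1.5 in at least 1 library, which left 1 counted gene among the 88 replication genes, 3 in the G1/S list and 0 among the histones. Replication genes outside the rule kept ratios of 1.19, 1.18, 1.37 and 1.25, and histones 1.29, 1.26, 1.56 and 1.29. Cohesin genes rose to 1.10, 1.19, 1.21 and 1.27. Scaled by the median of gene ratios in place of total UMIs, 17 were higher and 21 lower, so the balance of directions in this comparison turned with the scaling.

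**Figure D3:**
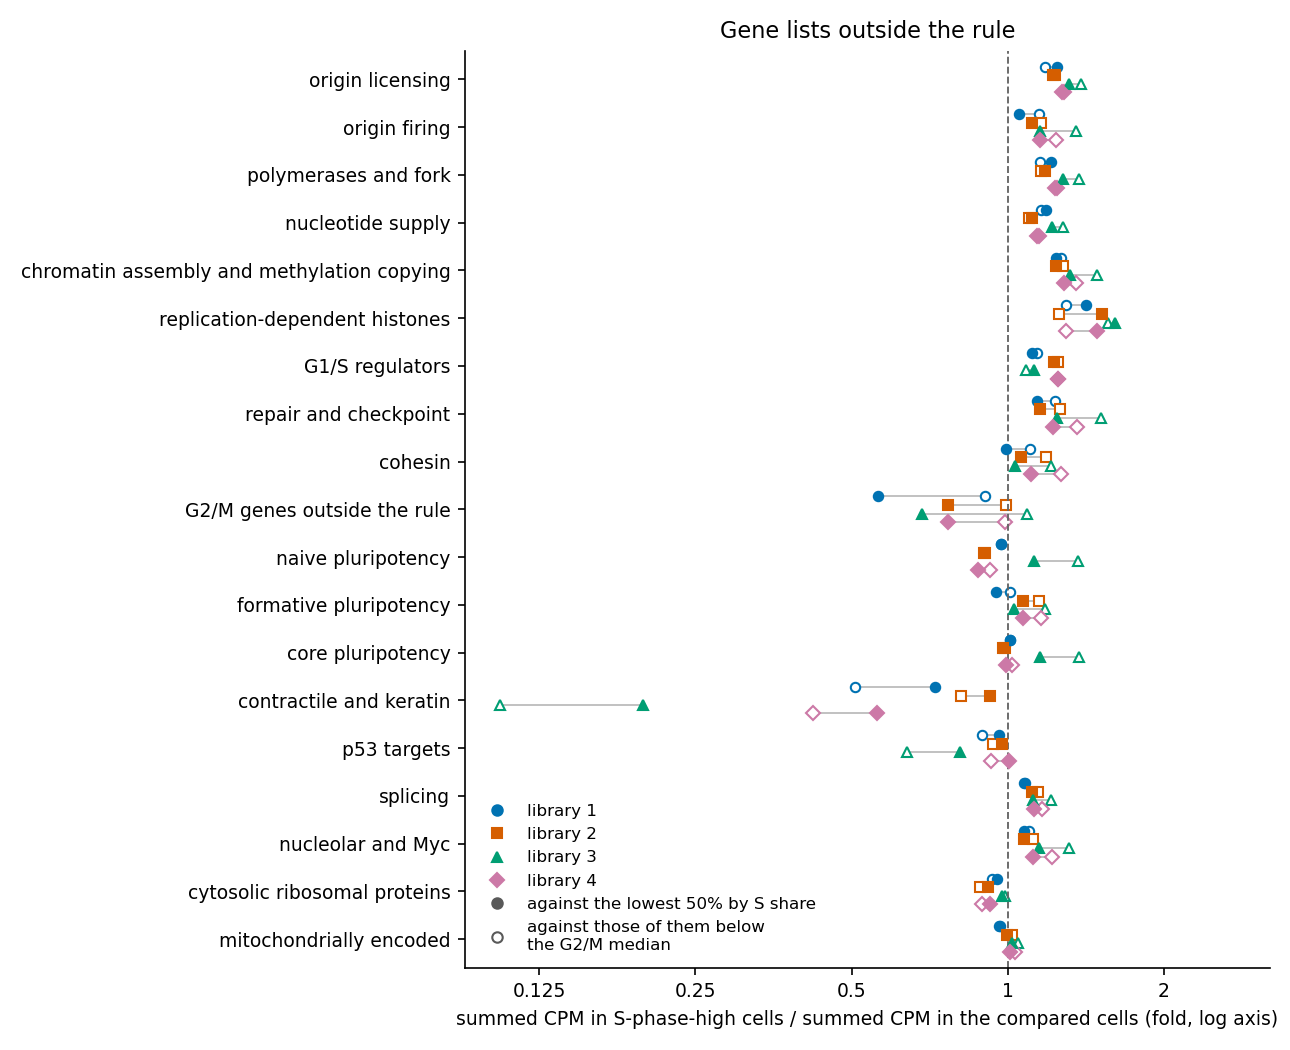
Ratio of summed CPM in S-phase-high cells to that in the compared cells for 19 gene lists, by library, against all S-low cells (filled) or those below the G2/M median (open), on a log axis. Replication lists lie at 1.05 to 1.49, the G2/M list moves from 0.563 to 0.768 up to 0.905 to 1.09, and the contractile and keratin list spreads from 0.105 to 0.925.

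The contractile group differed widely between libraries. Acta2, the smooth muscle actin, was counted in 2, 8, 45 and 38 UMIs of all S-phase-high cells, or 0.123, 0.419, 2.85 and 2.32 CPM, against 8.02, 5.14, 226 and 23.0 CPM in S-low cells. In library 1 the ratio was 0.0153 with a counting interval of 0.00185 to 0.0556, and in library 3 it was 0.0126 with 0.00921 to 0.0169. Acta2 reached the count minimum only through the S-low cells, so it could be counted as lower and not as higher. Tagln, an actin-binding protein of smooth muscle, stood at 3.50, 7.38, 35.2 and 30.1 against 32.0, 21.8, 506 and 170 CPM, and Krt8, a keratin of simple epithelia, at 6.02, 8.53, 28.9 and 26.0 against 31.6, 16.1, 400 and 106 CPM. The other lower genes among the leading 15 were Cryab, a small heat shock protein, the annexins Anxa1 and Anxa3, Wnt4, a secreted ligand, Phlda1 and Ttc28. For Acta2, Tagln and Krt8, S-phase-high levels were below those of S-low cells in every library, and library 3 had the highest level in both classes.

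The contractile and keratin list of 14 genes summed to 0.723, 0.925, 0.198 and 0.560. Of the 13 with enough counts 3 were counted as lower, Acta2, Tagln and Krt8, against 0.533% of all genes. All 3 had under 200 UMIs in the S-phase-high cells of libraries 1 and 2 and passed the count minimum there through the S-low cells, so nothing is read from their number. Sums of fibroblast markers had ratios of 0.486, 0.812, 0.0971 and 0.871, of trophectoderm markers 0.889, 1.78, 0.297 and 0.670, and of primitive endoderm markers 0.851, 1.67, 0.171 and 0.838. In library 3, where all 3 were lowest, the levels in S-phase-high and S-low cells were 1.84 and 18.9 CPM, 5.07 and 17.1 CPM, and 1.27 and 7.39 CPM. In library 2 the largest part of the trophectoderm sum was Eomes, with 88 UMIs in S-phase-high and 180 in S-low cells. For the size of the classes, Cdx2, with 18 and 13, and Elf5, with 1 and 2, had the same direction. Krt7, with 20 and 171, and Gata3, with 3 and 39, went the other way. Most fibroblast UMIs in S-phase-high cells were of Thy1, with 19, 77, 21 and 95, against 145, 476, 106 and 453 in S-low cells. For the size of the classes, Thy1 was lower in S-phase-high cells in libraries 1 and 2 and higher in libraries 3 and 4. Col1a1 and Col1a2 were lower in every library. The part of these markers in the contractile ratios was not tested. Cells in the highest 10% of their library by this list were S-phase-high in 13.5%, 12.0%, 2.03% and 5.50% of cases, against 11.7%, 11.6%, 12.5% and 12.1% of the other cells. The exact 95% binomial intervals of the highest 10%, for counting error only, were 1.16 to 3.27% in library 3 and 3.97 to 7.38% in library 4. The share was lower than in the other cells in libraries 3 and 4. In libraries 1 and 2 it was higher, with intervals of 11.3 to 16.1% and 9.88 to 14.4% that held the share of the other cells. Cells of 1 culture are not replicates, so the intervals decide nothing about the cultures. Median UMIs per cell in the highest 10% were 19382.5, 23139, 24541 and 23246.5, against 18242, 21727, 19110.5 and 21235.5 in the other cells. Total UMIs were the divisor of the S share, and the part of depth in these shares was not tested. With this highest 10% left out of both classes, an alternative chosen after seeing the data, 34 genes were higher and 46 lower. The contractile list itself then had a median ratio over the libraries of 0.995, against 0.642 with these cells. That list had chosen the cells left out, so its change was set by the omission and is a description. Against the matched S-low cells, the same omission gave 18 higher and 2 lower, Fam83d and Ahnak2, the latter named after its values were seen. Fam83d was not counted against matched cells before the omission, where its largest ratio was 0.674. The summed ratio of the replication genes was 1.20 without these cells, as a median of the libraries, against 1.21 with them.

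**Figure D4:**
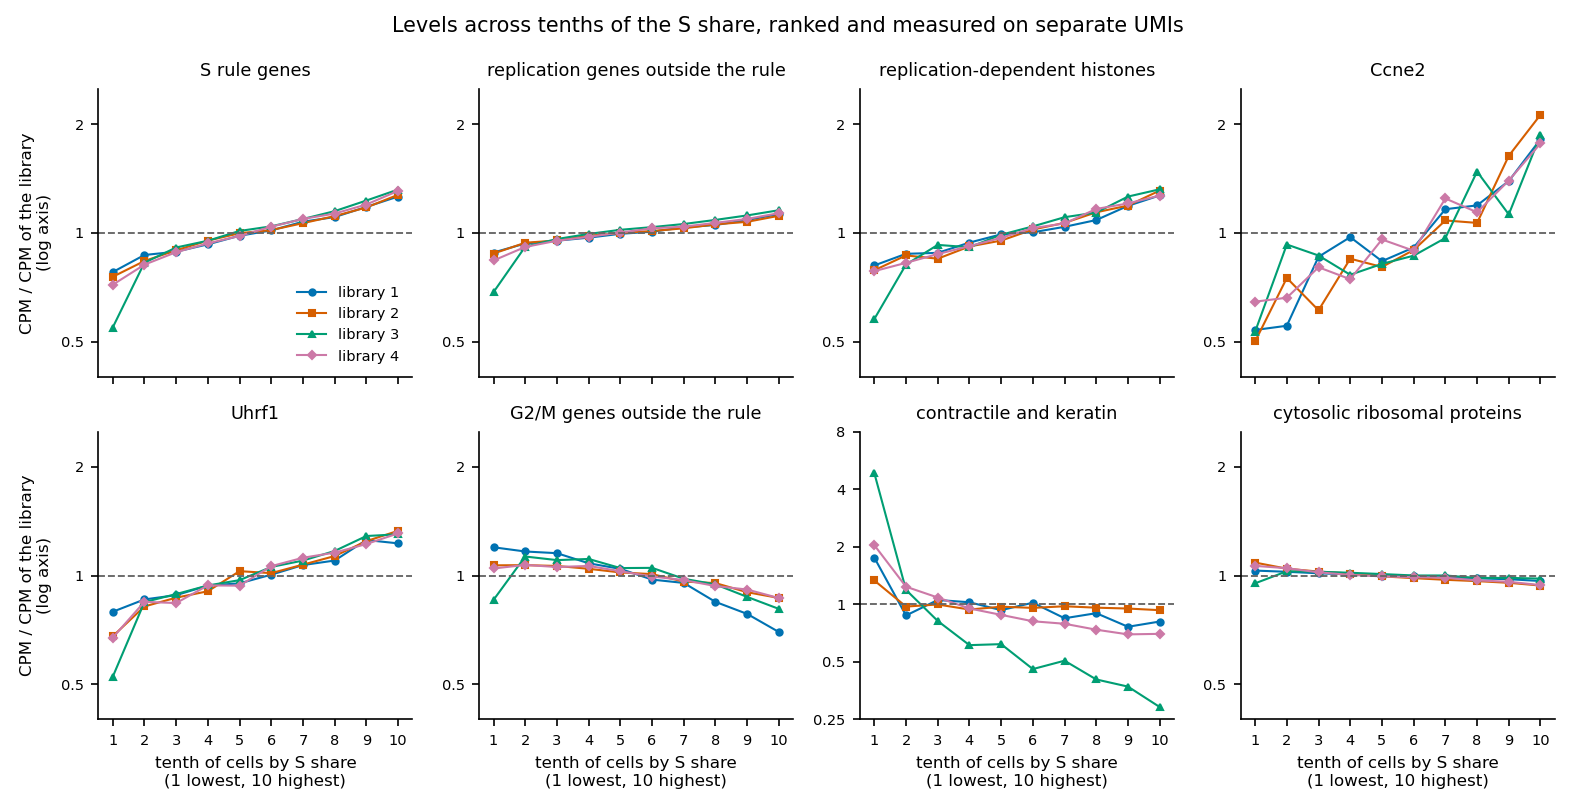
CPM of 6 gene lists and 2 genes in 10 equal parts of a library's kept cells, ranked by S share on 1 set of UMIs and measured on the other, relative to the whole library on a log axis, by library. Replication genes climb with every part in all 4 libraries, from 0.685 to 0.882 in the lowest 10% to 1.11 to 1.16 in the highest, and the contractile list of library 3 is at 4.86 in the lowest.

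The S genes and the other replication genes were higher in each 10% of cells by S share than in the one before, in all 4 libraries, while no single gene measured this way did so in all 4. With cells ranked on 1 set of UMIs and measured on the other, Ccne2 lay at 0.539, 0.501, 0.533 and 0.645 of its library's level in the lowest 10%, at 1.39, 1.63, 1.12 and 1.40 in the 10% below the highest and at 1.82, 2.12, 1.87 and 1.77 in the highest. Ccne1 went from 0.488 to 0.756 in the lowest 10% to 1.33 to 1.42 in the highest, Brca1 from 0.516 to 0.792 up to 1.34 to 1.47, E2f8 from 0.651 to 0.957 up to 1.40 to 1.51 and Uhrf1 from 0.525 to 0.794 up to 1.23 to 1.33. Ribosomal proteins went from 1.03, 1.09, 0.952 and 1.06 in the lowest 10% to 0.966, 0.939, 0.981 and 0.941 in the highest, lower at the high end in libraries 1, 2 and 4 and higher in library 3. Median UMIs per cell were lower in the highest 10% (15994 to 19115) than in the lowest (18518 to 22320), and the part of cell content in these levels was not tested. Library 3 stood apart in its lowest 10%, with the S genes at 0.547, replication genes at 0.685 and the contractile list at 4.86.

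Core pluripotency genes lay near 1 in 3 of the 4 libraries. Core factors Pou5f1, Sox2 and Sall4 together stood at 1376, 1328, 1172 and 1203 CPM in S-phase-high cells, with ratios of 1.01, 0.980, 1.15 and 0.991, so the cells carried the markers of embryonic stem cells. The 10 naive genes had summed ratios of 0.972, 0.902, 1.12 and 0.877, and 0 of the 9 with enough counts were higher or lower, against 0.349% and 0.533% of all genes. Their level in S-phase-high cells was 1900, 1483, 1494 and 811 CPM. Nanog and Klf4 of the naive network had 1.09, 0.99, 1.32 and 1.09 and 1.08, 1.05, 1.32 and 1.13, and Zfp42, the most abundant, 0.96, 0.87, 1.10 and 0.84. The 10 formative genes had 0.951, 1.07, 1.03 and 1.07, with 0 of 8 counted. With shares so small over all genes, nothing is read from 0 counted genes in lists of this size. Against the S-low cells below the G2/M median the formative ratios were 1.01, 1.15, 1.18 and 1.16. The first has a counting interval of 0.989 to 1.04 and lies under the ratio of the median gene in that library, 1.03, so its side of 1 turns with the scaling. The naive ratios were 0.970, 0.903, 1.36 and 0.925. Without the highest 10% by contractile and keratin genes, the median formative ratio was 1.000 against all S-low cells and 1.06 against matched ones. With those cells it was 1.05 and 1.15. In library 4 the highest 10% by naive genes held fewer S-phase-high cells, 6.17% against 12.1%, and in library 2 8.58% against 12.0%, but in library 1 11.8% against 11.9% and in library 3 12.3% against 11.3%.

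Srrm2 itself stood at 378, 547, 227 and 371 CPM in S-phase-high cells and 381, 519, 236 and 345 CPM in S-low cells. Its ratios were 0.99, 1.05, 0.96 and 1.08, on both sides of 1. The 8 splicing genes had summed ratios of 1.08, 1.12, 1.12 and 1.12, with Srsf2 at 1.16 to 1.24, and 8 nucleolar and Myc-linked genes 1.07, 1.07, 1.15 and 1.12, with the abundant Ncl at 1.11 to 1.18. Ribosomal protein genes had 0.954, 0.918, 0.977 and 0.924, with 55 of 79 below 1 in every library. Targets of p53 had 0.963, 0.974, 0.811 and 1.00, and mitochondrially encoded genes 0.968, 0.997, 1.02 and 1.01. In none of these 5 lists was a gene counted in either direction.

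Within the class, cells were parted at their median G2/M share into an upper and a lower part. Of 5976 genes 2 (0.0335%) were higher in the upper part, Top2a and Cenpf of the rule itself, and 0 (0%) were lower. The S genes had nearly the same sum in both, with ratios of 1.00, 1.00, 0.993 and 0.996, since all these cells had passed the same S limit. Histones were higher in the upper part by 1.22, 1.14, 1.16 and 1.12 times, repair genes by 1.08, 1.08, 1.06 and 1.10 and cohesin by 1.10, 1.05, 1.05 and 1.09. Other lists also had 1 direction in all 4 libraries. The naive genes had 1.08, 1.18, 1.03 and 1.32, the G2/M genes outside the rule 1.09, 1.07, 1.08 and 1.11, chromatin assembly genes 1.04, 1.05, 1.03 and 1.05, and ribosomal proteins 0.975, 0.966, 0.982 and 0.964. The cells were parted on G2/M share, so the direction of the G2/M genes was set by the choice.

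The nearest neighbours of the class were the 1084 cells that passed the S limit but had a G2/M share at or above the median, 251, 288, 282 and 263 cells. Their S genes summed to 0.978, 0.990, 0.984 and 0.981 of the S-phase-high level, since both were chosen on that sum, so what one S gene lost another gained. Ccne2 was at 4.61, 9.79, 7.17 and 9.45 CPM in these cells, or 0.490, 0.552, 0.666 and 0.444 of the S-phase-high level, with counting intervals of 0.298 to 0.769, 0.414 to 0.725, 0.460 to 0.944 and 0.324 to 0.597. Cdc6 was at 0.801, 0.728, 0.813 and 0.713, Ung at 0.823, 0.845, 0.797 and 0.877, and Slbp at 0.837, 0.914, 0.891 and 0.904, with every interval below 1. Pcna was at 0.955, 0.999, 0.999 and 1.03, and Mcm2 at 1.09, 1.05, 1.04 and 1.16. Cohesin was higher in these cells by 1.20, 1.10, 1.20 and 1.11 times and repair genes by 1.17, 1.09, 1.09 and 1.10 times. The replication genes outside the rule stood at 1.00, 1.01, 1.02 and 1.02 of the S-phase-high level, so their level was not particular to the class. Of the single genes named here Ccne2 took no part in choosing either group of cells, while Cdc6, Slbp, Ung, Pcna and Mcm2 did, and the values of those that did are a description.

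**Figure D5:**
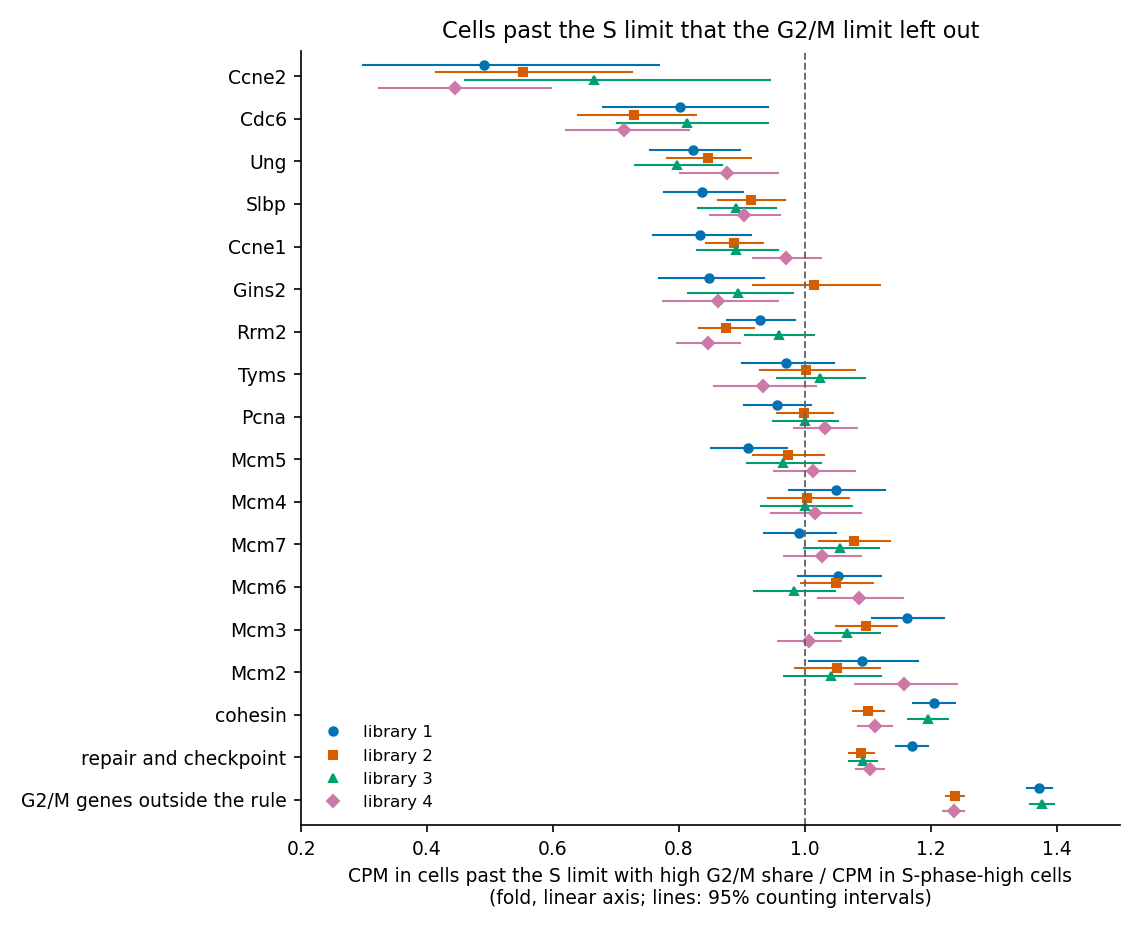
Ratio of CPM in cells past the S limit with a G2/M share at or above the median to CPM in S-phase-high cells, by library, with exact 95% counting intervals as lines. Ccne2 lies at 0.444 to 0.666 and Cdc6 at 0.713 to 0.813, Pcna near 1 at 0.955 to 1.03, and the G2/M genes outside the rule at 1.24 to 1.38.

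Libraries held 16270681, 19107490, 15785180 and 16356730 UMIs in S-phase-high cells, so that a floor of 3 counts equals 0.157 to 0.190 CPM and counting error was small beside the ratios of all but the scarcest genes. These intervals cover counting error only and say nothing of variation between cultures. Of S-phase-high cells 28 had more than 2 times their library's median UMIs, or 0.931%, 0.404%, 0.887% and 0.817% in libraries 1 to 4. Of S-low cells 1101 did, or 7.10%, 5.12%, 8.74% and 6.70%. Total UMIs were the divisor of the S share, so this is a description, and no doublet caller was used. Barcodes found in more than 1 library numbered 105 among kept cells, and 2 barcodes had S-phase-high cells in more than 1 library. Markers of primitive endoderm summed to 1.11 to 3.48 CPM, and of trophectoderm to 4.18 to 6.80 CPM. Those of fibroblasts summed to 1.35 to 6.42 CPM, with Lum and Dcn at 0 in all 4 libraries and most UMIs from Thy1. Those of 2-cell-like cells summed to 0.0611 to 1.67 CPM.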

How the data were processed

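Per the labels and the file headers, the authors aligned single-cell 3′ v3 libraries to mm10 with Cell Ranger 6.1.2, and its aggregation step, which evens out read depth between libraries, joined them. The deposited matrix holds raw UMI counts of 32285 genes in 41142 barcodes, with 9535, 11736, 9697 and 10174 in libraries 1 to 4.

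Cells were kept when UMIs and detected genes each reached the library's mean minus 1 SD and mitochondrial transcripts made up at most 10% of UMIs. Counts were summed over the cells of a class in each library and divided by the class total (CPM). Ratios have exact conditional 95% intervals and shares exact (Clopper-Pearson) 95% intervals, both for counting error only. A gene was counted at a 1.5-fold difference in every library with 200 counts over both classes. Genotypes were not tested against each other, since library numbers are not tied to samples. No p-value was computed, since the cells were chosen on values of the same libraries that a test between the classes would use.

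Members, gene lists and tests were chosen with earlier results of these data known. Genes named are those of the rule, the 15 counted genes outside it in each direction whose weakest library had the strongest ratio, up to 4 genes and the most abundant gene of a list, and Srrm2, Pou5f1, Sox2, Nanog, Klf4 and Dnmt3b. Promoter windows are RefSeq's (GRCm38.p6). Alternatives changed the compared cells, the share of cells taken, the UMIs, genes and barcodes that chose them, the depth (5000 UMIs per cell, under which 0 kept cells fell), the scaling, the count minimum, the fold and the libraries. The counting was tested on simulated data. Python 3.11.15, numpy 2.4.6, scipy 1.17.1, pandas 2.3.3 and matplotlib 3.10.9 were used.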

Additional observations from a re-analysis of the deposited data

How the results depend on the processing

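The median ratio of the replication genes stayed above 1 under the alternatives. That of the G2/M genes stayed below 1, a direction set by the choice except against matched cells. Against matched cells the G2/M ratios were 0.905, 0.993, 1.09 and 0.988 in libraries 1 to 4, so no direction is read there. In library 3 the ratio had been 0.684 against all S-low cells. No paired analysis was possible because the pairs would be labelled replicates of WT and Srrm2 hKO, to which library numbers are not tied. A test of the classes within libraries was left out, since the cells were chosen on the values compared. Leaving out the contractile 10%, size factors against matched cells and the S share without the Mcm genes were chosen after seeing the data. The number of S-phase-high cells was 3324 with cells thinned to 5000 UMIs and 4285 with all barcodes. With the S share from the Mcm genes alone it was 850, 813, 786 and 695 in libraries 1 to 4. The count of higher genes, 36, was 18 with cells chosen on 1 set of UMIs and measured on the other, 14 with cells thinned to 5000 UMIs, 20 with the S share from the Mcm genes alone, 99 with no count minimum, 10 at 2-fold, 18 without the highest 10% by contractile and keratin genes against matched S-low cells and 17 with size factors against matched cells. Leaving out 1 library gave 41 to 49. For the 55 lower genes the counts were 17 against matched cells, 22 thinned, 89 with a count minimum of 50, 130 with none, 11 at 2-fold, 2 without the contractile 10% against matched cells and 21 with size factors against matched cells. Leaving out 1 library gave 58 to 86, the last without library 2. Fewer genes or UMIs counted lowers or raises such numbers by construction, and other causes were not tested.

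The median ratio of replication genes outside the rule, 1.21, was 1.222 against matched cells, 1.225 with the highest 10%, 1.191 on separate UMIs, 1.152 thinned, 1.223 with all barcodes, 1.180 with the Mcm genes alone, 1.178 without them, 1.200 with size factors, 1.196 and 1.187 without the contractile 10% against all and matched S-low cells, and 1.180 with size factors against matched cells. Leaving out 1 library gave 1.204 to 1.218. The G2/M genes outside the rule, at 0.725, were at 0.990, 0.743 and 0.772 against matched cells, on separate UMIs and thinned, at 0.716 without cells over 2 times the median UMIs, at 0.735 with the Mcm genes alone and without them, at 0.701 and 0.958 without the contractile 10% and at 0.949 with size factors against matched cells. Leaving out 1 library gave 0.684 to 0.767. The naive list, at 0.937 with no gene counted, crossed 1 in 1 of 16 alternatives, to 1.03 with the Mcm genes alone.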

Other observations

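Levels of single genes in S-phase-high cells differed between libraries to unlike degrees. Ccne2 differed 2.26-fold and Cdc6 1.42-fold between the lowest and the highest library within S-phase-high cells, Orc6 1.05-fold and Mcm5 1.11-fold. Histones as a sum ran from 1577 to 3894 CPM, while the linker histone Hist1h1b stayed between 479 and 505 CPM. Dnmt3b ran from 85.1 to 685 CPM and the naive genes from 811 to 1900 CPM, in opposite order for the lowest and the highest library. Each library is 1 culture that no source used here ties to a sample.

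Pus3 (chr9:35558595-35567401, plus strand) and Hyls1 (chr9:35560820-35570398, minus strand) overlap on opposite strands in the GENCODE annotation of GRCm38. Pus3, a pseudouridine synthase picked out here after its values were seen, stood at 20.8, 25.2, 20.4 and 24.6 CPM in S-phase-high cells against 11.9, 14.9, 12.4 and 15.8 CPM in S-low cells. Hyls1 stood at 5.22, 5.86, 5.51 and 5.69 against 17.6, 13.5, 15.6 and 13.8 CPM, and with 85, 112, 87 and 93 UMIs in S-phase-high cells it passed the count minimum through the S-low cells. Against S-low cells below the G2/M median, Pus3 had ratios of 1.23, 1.38, 1.30 and 1.29 and Hyls1 0.767, 0.682, 0.819 and 0.638.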
